A study of Microcebus murinus with 8 samples.

Results

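The let-7 family and its relative miR-98 were followed in blood plasma of Microcebus murinus, the grey mouse lemur, a small-bodied primate. The members were let-7a, let-7b, let-7c, let-7f, let-7g and miR-98, chosen by name from the deposited tables (mmr-let-7a, mmr-let-7b, mmr-let-7c, mmr-let-7f, mmr-let-7g and mmr-miR-98, mmr standing for the species), and were 6 of the 108 microRNAs listed. All 6 were above the filter on low values in the comparison of diets, and no other let-7 was among the 104 microRNAs that passed it. The family, its total and its shares below mean these 6 members only. The vegetable fat group held samples 5 to 8, from wild-type animals fed a diet based on vegetable fat, and the dairy fat group held samples 1 to 4, from wild-type animals fed a diet based on dairy fat. Each difference is therefore of one diet against the other, with 4 samples a diet and no baseline. The labels give no age and do not say that each sample came from its own animal; the spread behind each p-value is that between samples and may be partly technical.

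Let-7 microRNAs are short RNAs that lower the output of messenger RNAs carrying a match to their seed, the stretch near the 5′ end that pairs with the target. The family members named here share that seed, so they can bind many of the same targets, among them RAS genes, HMGA2 and LIN28 in human and mouse. LIN28 proteins in turn block the maturation of let-7 precursors. In mice, let-7 has been tied to insulin signalling and glucose tolerance, and let-7 microRNAs are abundant in blood cells and in plasma. Several members come from more than one gene, which the mature RNA does not reveal. The members also differ from each other by only a few bases, and how reads that fit several members were assigned is not given in the sources used here, so the split between close members is uncertain.

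Levels are in RPM, reads per 1000000 reads of the listed microRNAs, and are shares of a fixed total. Implied read totals were 3286351, 1855670, 4004131 and 1061434 in vegetable samples 5 to 8, against 1408536, 3103305, 3437717 and 3210200 in dairy samples 1 to 4. These totals cover reads of the listed microRNAs only, and read total, deepest and shallowest refer to them below. By that measure vegetable sample 7 was the deepest library, and it stood apart in several results below. In plasma, a lower release per cell and fewer releasing cells cannot be told apart. Of the fixed cell markers, the 3 listed of 8 for red blood cells summed to between 6.66% and 11.7% of RPM on vegetable fat and between 6.07% and 9.83% on dairy fat. The 2 listed of 6 for leukocytes summed to between 0.114% and 0.403% on vegetable fat and between 0.261% and 0.650% on dairy fat, and the 4 listed of 4 for platelets and endothelium to between 0.268% and 1.29% on vegetable fat and between 0.285% and 0.993% on dairy fat. Of the 3 liver markers 0 are among the listed microRNAs. No listed marker was at 0 in all samples, and the ranges of the diets overlapped in each list that had listed markers. The part of these cells in the results was not tested.

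On either diet the family held between 48.4% and 58.6% of RPM, and the difference between the diets was within the spread of samples. It held 49.2%, 52.3%, 56.3% and 48.4% of RPM in vegetable samples 5 to 8, against 49.2%, 58.6%, 49.3% and 58.2% in dairy samples 1 to 4. The 2 lowest dairy values lay among the vegetable values, and the 2 highest lay above all of them. The mean was 51.6% ± 3.59 on vegetable fat and 53.8% ± 5.28 on dairy fat (SD, n = 4 each). The difference was −2.26 percentage points, with a 95% interval from −10.2 to 7.12 found by inverting the two-sided exact permutation test (p = 0.514). The difference ran from −3.86 points without vegetable sample 7 to −0.663 without dairy sample 2, and without dairy sample 1, 3 or 4 or vegetable sample 5 or 8 it was −3.80, −3.78, −0.816, −1.48 or −1.22.

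Let-7b, let-7a, let-7g and let-7f made up nearly all of the family, let-7c came next and miR-98 was scarce. The first 4 held 97.4% ± 0.69 of the family total (SD, n = 8). Averaged over all samples, let-7b stood at 181533 ± 18876 RPM, let-7a at 130940 ± 29333, let-7g at 103266 ± 23672 and let-7f at 97680 ± 27145 (SD, n = 8). Let-7c stood at 12717 ± 3048 RPM and miR-98 at 808.1 ± 151.7 (SD, n = 8). Among all 108 microRNAs let-7b ranked 1, let-7a 3, let-7g 4, let-7f 5, let-7c 12 and miR-98 43 by mean level. Let-7b was above miR-191, ranked 2, in only 3 of 8 samples.

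Not every step of that order held within samples. Neighbouring members were compared within each sample by a two-sided exact sign-flip permutation test over the 8 samples, chosen after the levels were seen, with adjustment by Benjamini-Hochberg over the 5 steps. Let-7b exceeded let-7a in 8 of 8 samples, on average 1.41-fold (log2 ratio 0.50 ± 0.37 SD, exact p = 0.00781, the smallest possible here, adjusted p = 0.0130). Let-7f exceeded let-7c 7.64-fold and let-7c exceeded miR-98 15.6-fold, each in 8 of 8 samples with the same p-values. The order tested was taken from the means of these same samples, so the p-values are no separate support for it. Let-7a and let-7g did not differ beyond their spread, with let-7a higher in 5 of 8 samples (log2 ratio 0.35 ± 0.60, exact adjusted p = 0.176), and neither did let-7g and let-7f, each higher in 4 of 8 (log2 ratio 0.09 ± 0.50, exact adjusted p = 0.633).

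**Figure D1:**
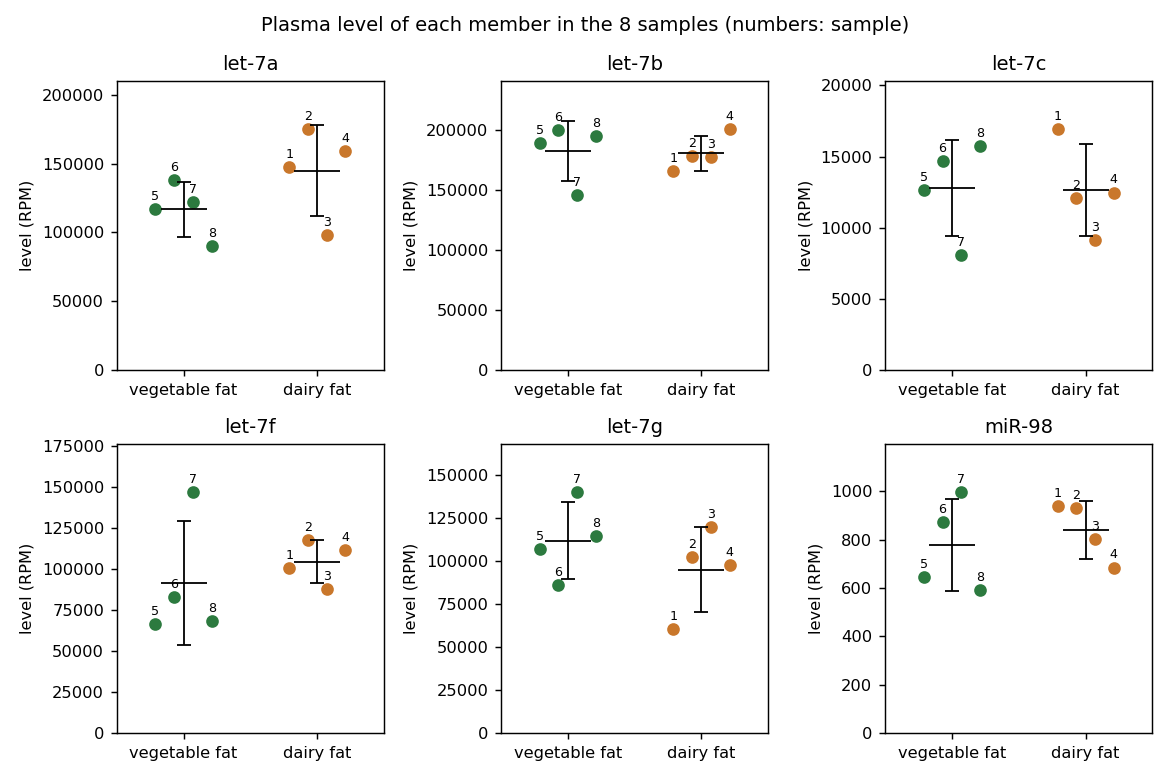
Level of each of the 6 members in RPM (vertical axis, one panel per member, each with its own scale from 0) in the vegetable fat samples (green, left) and the dairy fat samples (orange, right). Points are samples with their number, and the black line and bars are the mean and SD of 4 samples. The 2 diets overlap in every panel, and vegetable sample 7 is lowest for let-7b and let-7c and highest for let-7f, let-7g and miR-98.

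No change of a member between the diets was detected by the test used. Differences were tested with limma on log2(RPM + 1) over the 104 microRNAs that passed the filter, with Benjamini-Hochberg adjustment over all of them and a threshold of 0.05. Of the 6 members 0 passed, where 0% of all 104 did, and 0 members and 0 of the 104 had an unadjusted p under 0.05. No member and none of the 108 microRNAs had levels that separated the diets completely. Estimates are differences of mean log2(RPM + 1), vegetable minus dairy fat. They lay above 0 for 3 members and below 0 for 3, with a median of −0.06 over the members and of 0.07 over all microRNAs tested.

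Let-7a, the form whose sequence is conserved from worm to human, had 116991, 138403, 121819 and 90454 RPM in vegetable samples 5 to 8, against 147485, 174979, 98471 and 158920 RPM in dairy samples 1 to 4. Of the dairy samples 3 lay above all vegetable samples and dairy sample 3 lay below all but vegetable sample 8. Its estimate of −0.29 had the smallest p of the members (95% interval −0.75 to 0.16, limma adjusted p = 0.999). The estimate was −0.18 without vegetable sample 8 and −0.47 without dairy sample 3.

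Let-7f differs from let-7a at a single base in human, so the pair is hard to separate by reads. Let-7f had 66426, 83070, 146787 and 68212 RPM in vegetable samples 5 to 8, against 100295, 117741, 87793 and 111120 RPM in dairy samples 1 to 4. Vegetable sample 7 was the highest of all 8 and the other vegetable samples were the 3 lowest. The estimate was −0.27 (95% interval −0.82 to 0.29, limma adjusted p = 0.999) and −0.52 without vegetable sample 7, where the adjusted p was 0.560, or −0.14 without vegetable sample 5.

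Let-7g, which comes from a single gene in human, had 106591, 85715, 140027 and 114191 RPM in vegetable samples 5 to 8, against 60368, 102056, 119412 and 97766 RPM in dairy samples 1 to 4. The lowest value was that of dairy sample 1 and the highest that of vegetable sample 7, and the others were mixed. Its estimate of 0.26 was the highest of the members (95% interval −0.26 to 0.77, limma adjusted p = 0.999). It rested on dairy sample 1, without which it was 0.05, and was 0.38 without dairy sample 3.

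Let-7b, which is abundant in blood, had 188957, 199907, 145656 and 195072 RPM in vegetable samples 5 to 8, against 166172, 178459, 177325 and 200714 RPM in dairy samples 1 to 4. All values but that of vegetable sample 7 lay between 166172 and 200714 RPM. The estimate was 0.0060 with the narrowest interval of the members, −0.31 to 0.33 (limma adjusted p = 0.999).

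Let-7c had 12620, 14678, 8115 and 15711 RPM in vegetable samples 5 to 8, against 16918, 12103, 9119 and 12475 RPM in dairy samples 1 to 4. Each diet had one low sample, vegetable sample 7 and dairy sample 3, and the ranges nearly coincided. The estimate was 0.0050 (95% interval −0.58 to 0.59, limma adjusted p = 0.999), and it was 0.21 without vegetable sample 7 and −0.14 without dairy sample 3.

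MiR-98 is encoded beside a let-7f gene on the X chromosome in human. It had 646.3, 872.5, 997.2 and 591.7 RPM in vegetable samples 5 to 8, against 940.0, 932.2, 800.5 and 684.4 RPM in dairy samples 1 to 4. The vegetable samples held both the highest and the 2 lowest values. The estimate was −0.13 (95% interval −0.75 to 0.48, limma adjusted p = 0.999), or −0.26 without vegetable sample 7 and −0.01 without vegetable sample 8. Counting error was small beside this spread: the fewest reads, 628 in vegetable sample 8, gave an exact Poisson interval of 546 to 640 RPM, or a counting error of 3.99%, against a coefficient of variation of 18.8% over the 8 samples. Such intervals cover counting error only.

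Another scaling moved all estimates down together. With upper quartile factors the median over all microRNAs was −0.17 in place of 0.07, and let-7b and let-7c, which lay close to 0, were −0.23 each. The other members kept their sign, with let-7g the 1 member above 0, at 0.02. With scaling by the median log ratio that median was 0.07 and the members again stood 3 above and 3 below. Shares within the family and ratios between members, given next, do not depend on such scaling.

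The make-up of the family varied between samples within each diet. Let-7b took 38.4%, 38.2%, 25.9% and 40.3% of the family total in vegetable samples 5 to 8, against 33.8%, 30.4%, 36.0% and 34.5% in dairy samples 1 to 4. It led the family in 7 of the 8 samples. In vegetable sample 7 let-7f came first with 26.1%, just above let-7b, while in the other vegetable samples let-7f held 13.5% to 15.9% and in the dairy samples 17.8% to 20.4%.

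Let-7a took 22.6% ± 3.30 of the family total on vegetable fat and 26.8% ± 4.69 on dairy fat, and let-7g took 21.6% ± 3.72 on vegetable fat and 17.7% ± 4.93 on dairy fat (SD, n = 4 each). These were the 2 members whose shares differed most, by −4.14 points (95% interval −11.3 to 6.50) and by 3.95 points (−7.83 to 12.6). The exact permutation p was 0.229 for let-7a and 0.314 for let-7g, and 0.771 for both after adjustment over the 6 members. Let-7f took 17.4% ± 5.87 on vegetable fat and 19.3% ± 1.16 on dairy fat, let-7b took 35.7% ± 6.63 on vegetable fat and 33.7% ± 2.34 on dairy fat, and let-7c took 2.51% ± 0.77 on vegetable fat and 2.37% ± 0.72 on dairy fat (SD, n = 4 each). MiR-98 took 0.149% ± 0.027 on vegetable fat and 0.158% ± 0.030 on dairy fat. Of the 6 shares 0 passed the test and 0 had an unadjusted exact p under 0.05, and the smallest p that 4 against 4 samples allow is 0.0286. A single share at that exact p would have had an adjusted p of 0.171, so it could not pass alone. Several differences moved with single libraries. That of let-7b, 2.02 points, was 5.30 without vegetable sample 7 and 0.493 without vegetable sample 8. That of let-7f, −1.96 points, was −4.85 without vegetable sample 7 and −0.666 without vegetable sample 5. That of let-7a was −6.41 without dairy sample 3, and that of let-7g was 6.13 without dairy sample 3 and 2.14 without dairy sample 1.

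**Figure D2:**
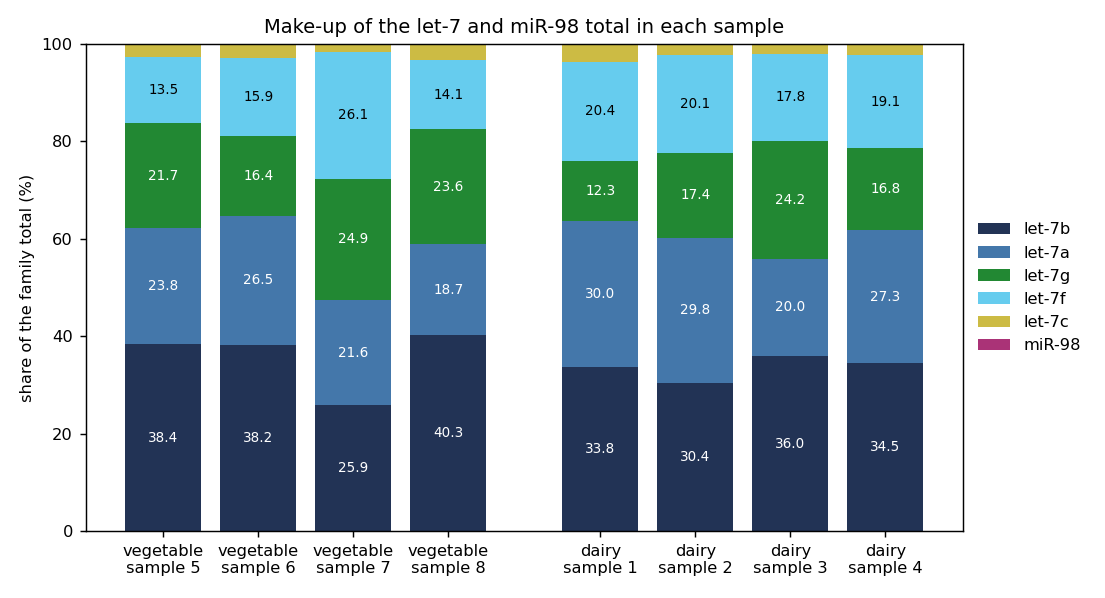
Share of each member in the family total (vertical axis, percent) for each sample, vegetable fat samples on the left and dairy fat samples on the right, with values printed for the 4 abundant members. MiR-98, at 0.118% to 0.191%, is too thin to see, and vegetable sample 7 differs from the other bars by a let-7b share of 25.9% and a let-7f share of 26.1%.

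Ratios between members put the same data free of scaling. The 15 pairs of members were compared between the diets by two-sided exact permutation tests with adjustment over the 15 pairs, and 0 passed and 0 had an unadjusted exact p under 0.05. The ranges of the diets overlapped in each pair. The smallest p was that of let-7f to let-7g, whose log2 ratio was −0.35 ± 0.42 on vegetable fat and 0.17 ± 0.48 on dairy fat (SD, n = 4 each; difference −0.52, 95% interval −1.48 to 0.51; exact permutation p = 0.143, adjusted p = 0.890). Without dairy sample 1 the difference was −0.33. Let-7f exceeded let-7g in 1 of 4 vegetable samples, by 1.05-fold in sample 7, and in 3 of 4 dairy samples, with 1.66-fold in sample 1, 1.15-fold in sample 2 and 1.14-fold in sample 4.

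The ratio of let-7a to let-7g differed by −0.55 (95% interval −1.62 to 0.97; exact permutation p = 0.200, adjusted p = 0.890), and was −0.85 without dairy sample 3 and −0.33 without dairy sample 1. For let-7g to miR-98 the difference was 0.39 (−0.60 to 1.59; exact permutation p = 0.371), and 0.13 without dairy sample 1. The smallest difference between the diets was that of let-7b to let-7c, with a log2 ratio of 3.87 ± 0.23 on vegetable fat and 3.87 ± 0.42 on dairy fat (SD, n = 4 each; difference 0.0011, 95% interval −0.65 to 0.87). Even there the interval allowed a change in either direction. With 4 samples a diet, a single ratio at the smallest exact permutation p, 0.0286, would have had an adjusted p of 0.429. A single ratio could therefore not pass alone, whatever the size of its shift.

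**Figure D3:**
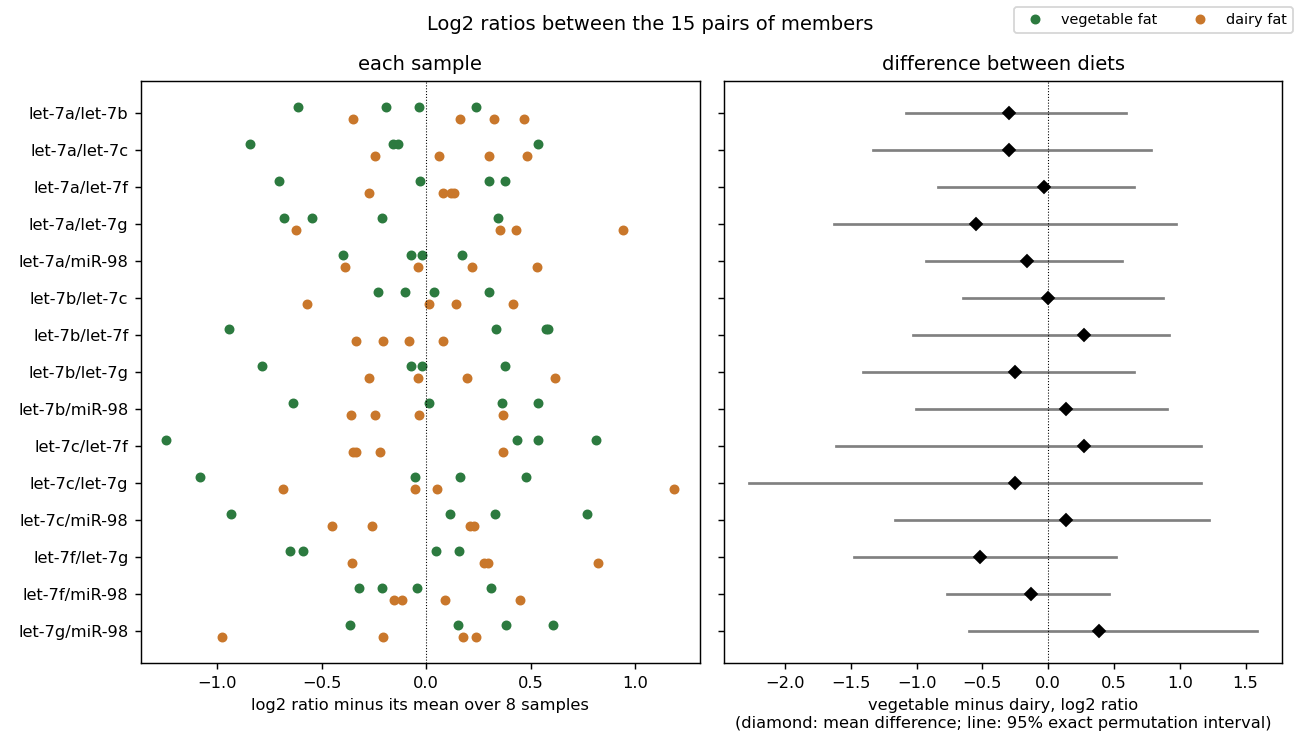
Log2 ratios between the 15 pairs of members (rows). On the left, points are single samples, vegetable fat green above dairy fat orange, each minus the mean of its pair over the 8 samples. On the right, diamonds are the mean difference of vegetable minus dairy fat and lines its 95% exact permutation interval. Each interval includes 0, from the narrow one of let-7f to miR-98 (−0.77 to 0.46) to the wide one of let-7c to let-7g (−2.27 to 1.17).

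Taken over all 8 samples, some members kept a steadier ratio than others. The steadiest was let-7f to miR-98, with an SD of the log2 ratio of 0.26 around a mean 119-fold excess of let-7f. Let-7b to let-7c and let-7a to miR-98 followed, each with an SD of 0.31. The least steady were let-7c to let-7g (SD 0.69) and let-7c to let-7f (SD 0.67): let-7c stood at 0.118, 0.171, 0.058 and 0.138 of the let-7g level in vegetable samples 5 to 8, against 0.280, 0.119, 0.076 and 0.128 in dairy samples 1 to 4. Dairy sample 1 and vegetable sample 7 were the 2 extremes. Over the 15 pairs the median SD was 0.45, against 0.41 over the 15 pairs of the 6 other distinct microRNAs with a mean of 10000 RPM or more, a description without a test.

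Spread over all 8 samples also differed between the members. Let-7b had a coefficient of variation (SD over mean) of 10.4%, the lowest of the 108 microRNAs, followed by miR-191 with 11.9%. MiR-98 had 18.8%, let-7a 22.4%, let-7g 22.9%, let-7c 24.0% and let-7f 27.8%. The median was 22.7% for the 6 members and 41.9% for the 102 other microRNAs, but scarcer microRNAs spread more. The 7 others at 10000 RPM or more had a median of 24.2%, with values from 11.95% to 26.7%. These 7 include a pair with identical values, at 26.4% each. Counting that pair once leaves 6 microRNAs and a lower median, so no order against the members is drawn. Within diets, let-7f spread by 41.5% on vegetable fat and 12.6% on dairy fat, and by 12.6% among vegetable samples 5, 6 and 8 alone. Let-7b likewise spread by 13.7% on vegetable fat and 8.01% on dairy fat, and by 2.82% among those 3 vegetable samples. Leaving out a dairy sample also narrowed the dairy spread, to 8.03% for let-7f without sample 3 and 3.90% for let-7b without sample 4. The difference in spread between the diets was not tested.

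**Figure D4:**
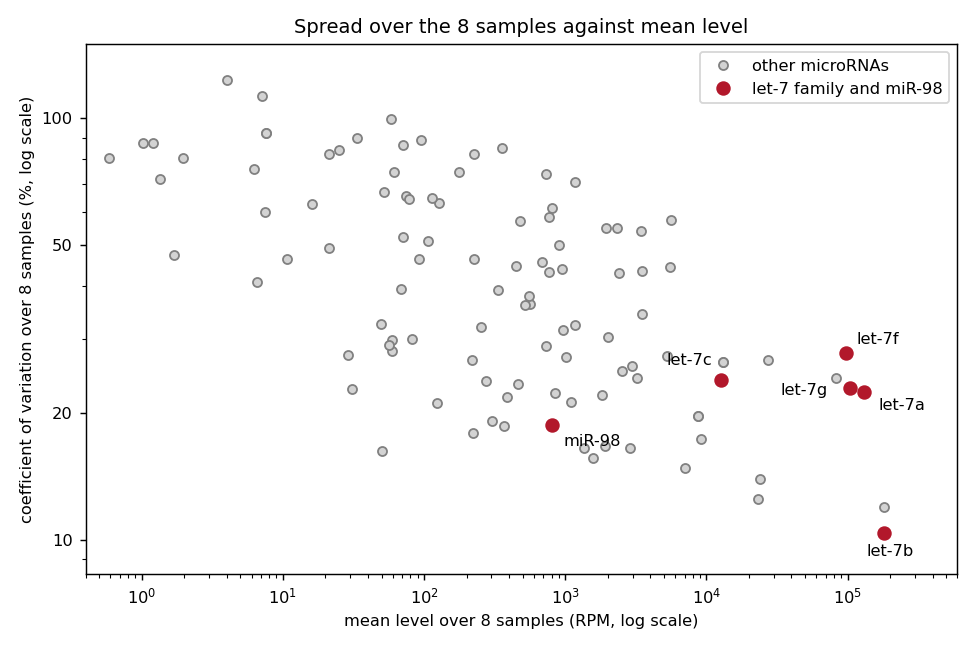
Coefficient of variation over the 8 samples in percent (vertical axis, log scale) against mean level in RPM (horizontal axis, log scale), for the 6 members (red) and the 102 other microRNAs (grey). Let-7b lies lowest of all at 10.4% and let-7f highest of the members at 27.8%.

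Levels were also set against the read total of the library. Of the 6 members 1 passed the limma test, let-7c, where 34.6% of all 104 microRNAs passed (36, of which 34 fell with read total), so the count of members is not above the background. That split moved with the scaling: 20 of 26 fell with upper quartile factors and 13 of 24 with the median log ratio. The median slope over all microRNAs was −0.30 on RPM, −0.13 with upper quartile factors and 0.04 with the median log ratio. Let-7c fell by 0.45 on the log2 scale per doubling of reads with diet as a term (95% interval −0.80 to −0.11, limma adjusted p = 0.0386). It fell on both diets, with slopes of −0.42 among the 4 vegetable samples and −0.53 among the 4 dairy samples. Its 3 highest values, 16918, 15711 and 14678 RPM, came from the 3 libraries under 2 M reads (M, 1000000), and its 2 lowest, 8115 and 9119 RPM, from the 2 deepest.

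The other slopes did not pass on RPM: 0.32 for let-7g (limma adjusted p = 0.138), 0.25 for let-7f (0.277), 0.09 for miR-98 (0.756), 0.07 for let-7a (0.726) and −0.07 for let-7b (0.686). Which member passed depended on the scaling: with upper quartile factors the let-7c slope was −0.27 (limma adjusted p = 0.256) and that of let-7g 0.50 (0.0357), and with the median log ratio they were −0.10 (0.676) and 0.67 (0.0241), with let-7f at 0.60 (0.0276). The count was thus 1 of 6 members with upper quartile factors, where 25% of all 104 passed, and 2 of 6 with the median log ratio, where 23.1% did. The let-7c call was also lost without vegetable sample 6, 7 or 8 or dairy sample 1 or 4 (limma adjusted p = 0.0873, 0.243, 0.0613, 0.211 and 0.0559), with slopes of −0.44, −0.35, −0.58, −0.43 and −0.47. Without vegetable sample 8 the slope of let-7g passed (0.65, limma adjusted p = 0.0155). With read total in the model the diet estimates were −0.28 for let-7a, −0.01 for let-7b, −0.10 for let-7c, −0.21 for let-7f, 0.33 for let-7g and −0.11 for miR-98, with none past the limma threshold.

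**Figure D5:**
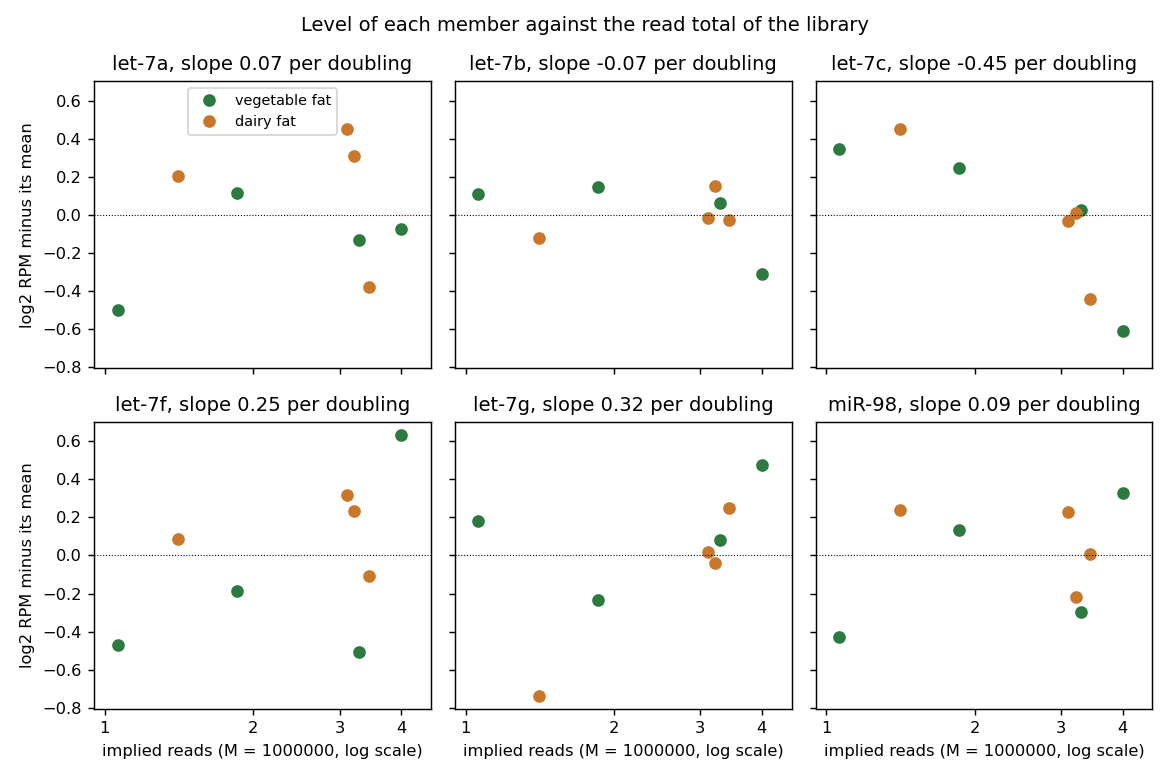
Log2 RPM of each member minus its mean over the 8 samples (vertical axis) against implied reads in M (horizontal axis, log scale), vegetable fat samples green and dairy fat samples orange. Slopes per doubling of reads from limma with diet in the model stand above each panel; let-7c lies highest in the 3 libraries under 2 M reads, and the 5 others lie over 3 M.

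The microRNAs whose ratio to the family total varied least were miR-26b, miR-26a and miR-191. They had the smallest SD of the log2 ratio to that total over the 8 samples, 0.19, 0.19 and 0.28, among the 65 other microRNAs with a mean of at least 100 RPM, where the median was 0.47. All 3 are abundant, at 23827 ± 3324, 23265 ± 2913 and 181376 ± 21674 RPM (SD, n = 8). They were also steady in themselves, with coefficients of variation of 13.9%, 12.5% and 11.95%, ranked 4, 3 and 2 from the lowest. The family share of RPM varied little too, by 8.26%. A steady ratio therefore does not show that these 3 rose and fell with the family. The next in order, miR-196b and miR-146b, came close to miR-191 with an SD of 0.28 each at far lower means of 367.4 and 221.0 RPM; these 2 were named after their values were seen.

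In human, let-7 genes share clusters with miR-99a, miR-99b, miR-100, miR-125a and miR-125b, of which miR-99a, miR-100 and miR-125a are listed. By diet 0 of the 3 passed the limma test. MiR-99a stood at 547.5 ± 142.1 RPM on vegetable fat and 564.9 ± 287.6 on dairy fat, miR-100 at 163.2 ± 112.6 on vegetable fat and 191.2 ± 166.2 on dairy fat, and miR-125a at 1114 ± 378.2 on vegetable fat and 1217 ± 426.6 on dairy fat (SD, n = 4 each). Against read total, 2 of the 3 passed, beside the 34.6% of all 104: miR-100 fell by 1.44 and miR-99a by 0.61 on the log2 scale per doubling (limma adjusted p = 0.00147 and 0.0440), while the slope of miR-125a was −0.37 (limma adjusted p = 0.257). The slope of miR-99a no longer passed with upper quartile factors (−0.43, limma adjusted p = 0.183) or the median log ratio (−0.26, limma adjusted p = 0.348). That of miR-100 still passed with both (−1.26 and −1.09, limma adjusted p = 0.0145 and 0.0241), beside 25% and 23.1% of all 104. That of miR-125a passed with neither (−0.19 and −0.01, limma adjusted p = 0.627 and 0.967).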

How the data were processed

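Plasma small RNA was profiled in 8 samples, extracted with the miRNeasy Micro kit and made into libraries with the QIAseq miRNA kit, per the labels' protocols. Cutadapt 3.4 was used, per the submitters' processing notes; how reads were aligned, counted, collapsed by molecular identifier or filtered is not given in the sources used here. For each sample the authors deposited RPM for 108 microRNAs, summing to 1000000 per sample. Among them 3 pairs have identical values in every sample, with 0 such pairs between members. Both entries of a pair count in the total and in the numbers of microRNAs. With identical values counted once in the total, the family share differed by −2.23 points, vegetable minus dairy fat (exact permutation p = 0.543). All values lay within 0.01 of whole multiples of one step, which gave the implied read totals; too few low values were listed to base a count test on them. The headers of the 4 vegetable fat tables carry running numbers other than those in the sample titles, with the same diet; titles were used. No 2 libraries agreed within counting noise (smallest chi-square 304 per degree of freedom).

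Limma 3.58.1 (R 4.3.3, trended robust variance) was fitted to log2(RPM + 1) of the 104 microRNAs that reached 1 RPM in 4 samples or more. On data simulated for the diet comparison with 104 microRNAs it recovered 33.5%, 82.5% and 93.0% of 2-, 4- and 8-fold changes. Over the runs at each fold, 200 microRNAs were changed and 840 were not, and 0, 14 and 9 of the unchanged were called. The values were drawn independently, unlike shares of a fixed total, and many microRNAs changed at once. The recovery of a lone changed member was not tested. Single values were tested by exact permutation over the 70 assignments of samples, with the 95% interval from inverting that test. Members and lists were chosen with earlier results of these data known. Named are the members, the 3 microRNAs with the steadiest ratio to the family and 5 cluster neighbours. Alternatives were other pseudocounts, no filter, 2 scalings, limma options, read total as covariate and omitted samples.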

Additional observations from a re-analysis of the deposited data

Results flagged for a closer look

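In 56 sets of 4 samples, 3 had a value far from the remaining samples, where chance gives about 1 in 20, or 2.8. The share of let-7b in the family total was 25.85% in vegetable sample 7, against 38.2% to 40.3% in the other vegetable samples. The log2 ratio of let-7b to let-7f was −0.01116 in vegetable sample 7, against 1.27 to 1.52 in the others of that diet. The log2 ratio of let-7a to let-7f was 0.1656 in dairy sample 3, against 0.52 to 0.57 in the other dairy samples. The first 2 share let-7b and a library, so they are not separate events. Vegetable sample 7 had 4004131 implied reads, the most of the 8, and dairy sample 3 had 3437717, the next most; the part of read total in these values was not tested.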

How the results depend on the processing

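No paired analysis was run, because the diets share no sample number and the labels do not say whether they shared animals. The limma counts between diets, over all microRNAs and members, were 0 under every alternative run, and so were those of shares and ratios by exact permutation. The exact counts say little about stability: the smallest p of that test is 0.0286, or 0.0667 without the shallowest and deepest libraries, and a single share or ratio at 0.0286 would have had an adjusted p of 0.171 or 0.429. With read total as covariate let-7b was −0.010 and let-7c −0.096, and with upper quartile factors −0.23 and −0.23. Leaving out the shallowest and deepest libraries, which left vegetable samples 5 and 6, log2 ratio differences changed sign for let-7a to let-7f (0.32), let-7b to let-7c (−0.031), let-7b to let-7g (0.055) and let-7c to let-7g (0.086). The let-7b read slope was 0.11 with upper quartile factors and 0.28 with the median log ratio; these scalings and limma without trend and robust options, where let-7c had an adjusted p of 0.112, were added for slopes after seeing the data. The microRNAs called against read total, 36, were 15 without dairy sample 1, 21 without vegetable sample 7 and up to 42.

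Leaving out 1 sample gave these ranges where a sign changed, none past the threshold: diet estimates of let-7b −0.042 to 0.11 and let-7c −0.14 to 0.21; read slopes of let-7a −0.15 to 0.16, let-7b −0.17 to 0.041, let-7f −0.0042 to 0.38 and miR-98 −0.12 to 0.23; share differences of let-7c −0.10 to 0.50 and miR-98 −0.021 to 0.0030 points; ratio differences of let-7a to let-7f −0.16 to 0.20, let-7b to let-7c −0.19 to 0.14, let-7b to miR-98 −0.018 to 0.37, let-7c to let-7g −0.52 to 0.10 and let-7c to miR-98 −0.097 to 0.47. The cause of these changes was not tested. With 4 samples a diet, limma intervals for members were ± 0.32 to ± 0.62 wide on the log2 scale.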
